A study of Mus musculus with 2 samples.

Results

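The nuclear genes for the subunits of oxidative phosphorylation were described in C57BL/6J embryonic stem (ES) cells of the mouse, from 2 libraries of polyadenylated RNA. Members were taken from the deposited gene table by symbol: those beginning with Nduf and one of the letters a, b, c, s or v, the Sdh genes a to d, and symbols beginning with Uqcr, Cox4 to Cox8 or Atp5. The rule matched 83 of the 13620 genes in the table. Of these, 78 encode subunits of complexes I to V, and 5 encode other proteins that share the prefix and are given apart. One library came from cells of genotype Fbxl10 T/T and 1 from wild-type (WT) cells. Both cultures were kept with serum and leukaemia inhibitory factor on mitotically inactivated mouse embryonic fibroblasts, which were removed by letting them attach to plastic before the cells were used. Fbxl10 is an older symbol of Kdm2b, the gene of a Polycomb-associated CpG island binding protein. The labels do not say what the T allele alters, or whether further cultures or clones exist, so the comparison asks only how RNA levels differ between these 2 libraries.

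Oxidative phosphorylation takes place in the inner mitochondrial membrane. Complexes I and II pass electrons from NADH and succinate to ubiquinone, complex III passes them to cytochrome c, and complex IV passes them to oxygen. Complexes I, III and IV pump protons, and complex V, the ATP synthase, uses the proton gradient to make ATP. Complex II is built from nuclear-encoded subunits only, whereas the other complexes combine nuclear subunits with a few encoded by mitochondrial DNA, for which the table lists no symbol. Many of the nuclear subunits are small proteins with short messenger RNAs, and processed copies of such messenger RNAs are common in mammalian genomes as pseudogenes.

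Levels are given in normalised CPM, that is, reads of a gene per 1000000 reads of an effective library size set by the authors. Ratios are log2 of (T/T CPM + 0.5) over (WT CPM + 0.5), so a positive value is higher in T/T, and folds are plain ratios of CPM. With no replicates, no difference between the genotypes was tested. Intervals are exact binomial (Clopper-Pearson) 95% intervals from the reads and cover counting error only. The libraries held 27109446 reads (T/T) and 21198574 reads (WT) in listed genes, so that 3 reads correspond to 0.122 and 0.126 CPM. Kdm2b (ENSMUSG00000029475, chromosome 5 from 123320688 to 123439832 in mm9) stood at 10.6 CPM in T/T and 102.5 CPM in WT cells. Both libraries carry the label of ES cells. Of 12 pluripotency markers 11 were lower in the T/T library, 8 of them at least 2-fold. Klf4 and Dppa5a were less than 1.5-fold lower, and Tbx3 was higher in T/T. The 12 markers summed to 2127 CPM in T/T and 7329 CPM in WT cells. All 12 markers of primitive or parietal endoderm were at least 2-fold higher in T/T, and they summed to 64398 CPM there and to 6872 CPM in WT cells. Of 15 measured fibroblast markers 13 were lower in T/T, with sums of 914.6 and 2054 CPM in T/T and WT cells, and no measured marker of the 3 lists was at 0 (1 of the 16 listed fibroblast markers has no row). The part of these shifts in the results below was not tested, and in bulk RNA more cells of a type and more RNA per cell cannot be told apart.

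The subunit genes were on the whole slightly higher in the T/T library. Their median log2 ratio was 0.39, beside 0.02 for all 13512 genes that reached 1 CPM in at least 1 library. Of the 78 subunits 62 (79.5%) lay above 0, compared with 50.9% of all genes. More abundant genes leaned the same way: the 7847 genes with at least 20 CPM in 1 library or more had a median of 0.19 with 59.7% above 0, and the 70 subunits among them a median of 0.37. The shift was broad and small: 24 subunits (30.8%) were at least 1.5-fold higher, close to the 26.5% of all genes under the deposited scaling, and 2 (2.56%) were at least 1.5-fold lower, compared with 28.7% of all genes. Past 2-fold, 4 subunits (5.13%) were higher and 2 (2.56%) lower, compared with 14.8% and 20.6% of all genes. Subunits were thus found past either fold in the lower direction at a smaller share than all genes, and past 2-fold in the higher direction too. The contrast was smaller for abundant genes. Of all genes with at least 20 CPM, 17.5% were 1.5-fold lower, 10.8% 2-fold lower and 18.6% 2-fold higher. The 70 subunits among them gave 0.0%, 0.0% and 4.29% in the same order. An exact binomial test of the reads with Benjamini-Hochberg adjustment compares the 2 libraries and not the genotypes. At these depths it called most genes of the table, and its directions rest on the deposited scaling. Its calls among the subunits are therefore not counted here.

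How far above 0 the subunits lay depended on the scaling. The 3 other scalings moved the median of all genes from 0.02 to -0.11 (common median), -0.21 (common upper quartile) and -0.28 (plain reads per 1000000). The subunit median moved with it, to 0.26, 0.16 and 0.09, with 57, 50 and 45 subunits above 0. Log2 ratios between 0 and about 0.31 are therefore positive or negative by the choice of scaling, which concerns 17 subunits, among them Ndufs8, Ndufs1, Ndufs3, Sdhb, Uqcrc2, Uqcrb, Cox7a2l, Atp5f1, Atp5o and Atp5g1. Relative to all genes the subunits stood 0.37 higher under each of these scalings, and relative to genes with at least 20 CPM 0.18 higher. That these differences stayed the same follows by construction, because a scaling moves each gene by nearly the same amount. The share at least 1.5-fold higher moved to 10.3% of subunits, compared with 19.3% of all genes, at a common upper quartile, and to 8.97%, compared with 17.6%, under plain reads. Summed over all subunits, levels were 15990 CPM in T/T and 14011 CPM in WT cells (1.14-fold), yet as a share of the listed reads the subunits took 1.46% in T/T and 1.58% in WT cells.

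**Figure D1:**
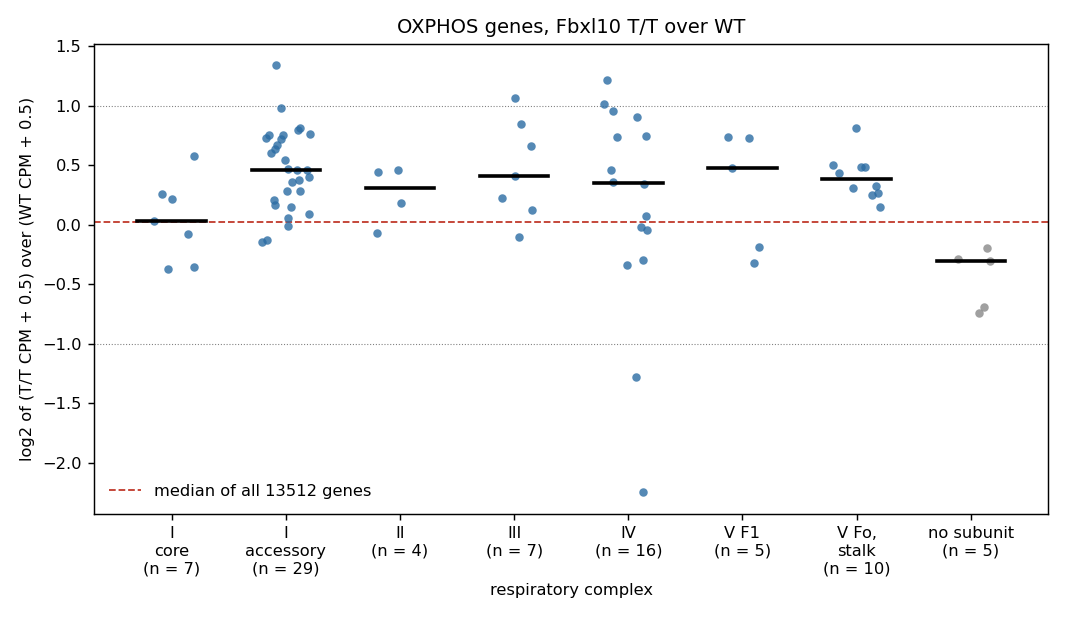
Log2 ratio of each gene (y axis, T/T over WT, CPM + 0.5) by complex and class (x axis); points are genes, black bars medians, the dashed line the median of all 13512 genes and dotted lines 2-fold. The core subunits of complex I centre on 0.03 and its accessory subunits on 0.46, all 10 Fo and stalk subunits of complex V lie above 0 (not Atp5f1, Atp5o and Atp5g1 under plain read scaling), and all 5 genes that are no subunit lie below 0.

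Complex I, the NADH dehydrogenase, differed between its 2 kinds of subunit. The 29 accessory subunits, which surround and stabilise the enzyme, had a median log2 ratio of 0.46 as deposited. Of these, 26 (89.7%) lay above 0 and 12 (41.4%) were at least 1.5-fold higher, compared with 50.9% and 26.5% of all genes. Such counts depend on the scaling. Over all 78 subunits the share at least 1.5-fold higher fell from 30.8% to 10.3% at a common upper quartile. The 7 core subunits, which carry the flavin, the iron-sulfur clusters and the quinone site, had a median of 0.03, with 4 above 0 and none past 1.5-fold. Summed levels showed the same split: accessory subunits reached 2724 CPM in T/T and 2049 CPM in WT cells (1.33-fold, 1.31 to 1.34), and core subunits 767.9 CPM in T/T and 828.5 CPM in WT cells (0.927-fold, 0.909 to 0.946). Each core subunit has a coding sequence over 600 bases, a length dealt with below.

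Among the accessory subunits Ndufa5, a matrix arm subunit, showed the highest ratio of all subunits. It had 50.1 CPM (1238 reads) in T/T and 19.5 CPM (466 reads) in WT cells, which is 2.57-fold (2.31 to 2.87). Ndufa5 (ENSMUSG00000023089, chromosome 6 from 24468666 to 24477570 in mm9) was the only subunit to stay at least 2-fold higher in T/T under all 3 other scalings. Ndufa1, an X-linked subunit of the membrane arm, followed at 62.8 CPM in T/T and 31.5 CPM in WT cells (1.99-fold, 1.83 to 2.18). Ndufa3 had 103.4 CPM in T/T and 58.5 CPM in WT cells (1.77-fold). Ndufb10, of the distal membrane arm, had 116.0 CPM in T/T and 66.7 CPM in WT cells (1.74-fold). The other 8 past 1.5-fold were Ndufb3, Ndufb8, Ndufa6, Ndufc2, Ndufa8, Ndufa2, Ndufb7 and Ndufa9, at 1.53- to 1.70-fold. At the low end of the accessory class stood Ndufa11, with 111.5 CPM in T/T and 123.2 CPM in WT cells, Ndufa7, with 155.9 CPM in T/T and 170.6 CPM in WT cells, and Ndufa10, with 195.7 CPM in T/T and 197.0 CPM in WT cells. These 3 lay within 0.15 of 0 on the log2 scale, and Ndufa7 had the highest level per length of the complex in both libraries (295.2 and 323.2 CPM per kb of transcript in T/T and WT cells). The remaining 14 accessory subunits had log2 ratios between 0.06 and 0.54.

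Among the core subunits the lowest ratio belonged to Ndufv1, which binds NADH and the flavin. Ndufv1 had 177.9 CPM in T/T and 230.5 CPM in WT cells, and was 1.30-fold lower in T/T (1.25 to 1.35). Ndufs7, an iron-sulfur subunit, lay on the other side, with 96.1 CPM in T/T and 64.1 CPM in WT cells (1.5004-fold, 1.41 to 1.60), just under the threshold on the log2 scale. The iron-sulfur subunits Ndufs8 and Ndufs1 were at 0.26 and 0.22, Ndufs3 at 0.03 and Ndufv2 at -0.07.

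In complex II, succinate dehydrogenase, ratios differed by position in the enzyme and also by coding length. Coding lengths were 477 (Sdhd), 507 (Sdhc), 846 (Sdhb) and 1992 bases (Sdha), and over 4 genes position and length cannot be told apart. The membrane anchors were higher in T/T: Sdhc had 176.3 CPM in T/T and 128.3 CPM in WT cells (1.37-fold, 1.31 to 1.44), and Sdhd had 281.3 CPM in T/T and 206.4 CPM in WT cells (1.36-fold, 1.31 to 1.41). The iron-sulfur subunit Sdhb had 143.4 CPM in T/T and 126.4 CPM in WT cells (1.13-fold). The flavoprotein Sdha, which oxidises succinate and is the largest of the 4, had 243.0 CPM in T/T and 254.7 CPM in WT cells (0.954-fold, 0.920 to 0.989). None of the 4 passed 1.5-fold in either direction; Sdhb was below 0 at a common upper quartile (-0.06) and under plain read scaling (-0.13).

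In complex III, which hands electrons to cytochrome c, the median log2 ratio was 0.41 and 6 of 7 subunits lay above 0, of which Uqcrc2 turned negative at a common upper quartile and under plain read scaling, and Uqcrb under all 3 other scalings. Uqcrq, a small ubiquinone-binding subunit, had 390.9 CPM (9649 reads) in T/T and 186.6 CPM (4457 reads) in WT cells, which is 2.09-fold (2.02 to 2.17). Per length it was the second most abundant subunit in T/T after Atp5b, at 965.1 CPM per kb in T/T and 460.8 CPM per kb in WT cells. Uqcr, the smallest subunit, had 79.4 CPM in T/T and 43.9 CPM in WT cells (1.81-fold). Uqcrh, the hinge protein beside cytochrome c1, had 143.6 CPM in T/T and 90.4 CPM in WT cells (1.59-fold). The Rieske iron-sulfur protein Uqcrfs1 had 189.9 CPM in T/T and 142.6 CPM in WT cells (1.33-fold). The core proteins were nearer to 0, with Uqcrc2 at 263.0 CPM in T/T and 224.3 CPM in WT cells and Uqcrc1 at 392.8 CPM in T/T and 421.3 CPM in WT cells. Uqcrb lay between them at 39.9 CPM in T/T and 36.5 CPM in WT cells. Cyc1, the cytochrome c1 gene of the same complex, is outside the symbol rule and had 327.1 CPM in T/T and 317.0 CPM in WT cells.

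Complex IV, cytochrome c oxidase, had the widest spread, with log2 ratios between -2.25 and 1.21 over 16 genes and a median of 0.35. Ndufa4 and Ndufa4l2 are counted here, because NDUFA4 is now known as a subunit of this complex. As deposited, 6 members of complex IV (37.5%) passed 1.5-fold in the higher direction, beside 26.5% for all genes. The share past this fold depends on the scaling. At a common upper quartile it fell from 30.8% to 10.3% over all subunits, and to 19.3% over all genes. Ndufa4 had 335.1 CPM in T/T and 165.6 CPM in WT cells (2.02-fold, 1.95 to 2.10), and Cox6b1, on the outer side of the enzyme near the cytochrome c site, had 328.4 CPM in T/T and 169.1 CPM in WT cells (1.94-fold, 1.87 to 2.02). Cox8a had 507.3 CPM in T/T and 304.8 CPM in WT cells (1.66-fold). By contrast Cox4i1, which had the most reads of the complex, had nearly equal levels, with 637.0 CPM in T/T and 644.0 CPM in WT cells (0.989-fold, 0.967 to 1.01). Cox5a and Cox5b were 1.38- and 1.27-fold higher in T/T, and Cox6c was 1.28-fold higher. Cox7b had 88.7 CPM in T/T and 91.5 CPM in WT cells.

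Several subunits of complex IV exist as paralogous isoforms. The form of muscle or testis differed in direction from the ubiquitous form in the Cox6a and Cox6b families, but not in the Cox7a family. Cox6a1, the ubiquitous form, had 477.7 CPM in T/T and 254.0 CPM in WT cells (1.88-fold, 1.82 to 1.94). Its heart and skeletal muscle paralogue Cox6a2 had 2 reads (0.0810 CPM) in T/T and 54 reads (2.26 CPM) in WT cells, 27.9-fold lower in T/T with a counting interval of 7.36 to 236.3. Of the Cox7a family, the muscle form Cox7a1 had 14.8 CPM in T/T and 6.11 CPM in WT cells (2.43-fold, 2.00 to 2.96), so the muscle isoforms of these 2 families differed in opposite directions. The ubiquitous Cox7a2 had 162.2 CPM in T/T and 96.6 CPM in WT cells (1.68-fold), and Cox7a2l, which takes part in respiratory supercomplexes, had 126.6 CPM in T/T and 120.4 CPM in WT cells. The testis form Cox6b2 was lower in T/T, at 50.8 CPM against 62.3 CPM in WT cells, while Cox6b1 was higher. Ndufa4l2, a paralogue of Ndufa4 known as a hypoxia-inducible gene, had 6 reads (0.243 CPM) in T/T and 31 reads (1.30 CPM) in WT cells, 5.34-fold lower in T/T (2.195 to 15.7). Ndufa4l2 and Cox6a2 were the only subunits 1.5-fold or more lower in T/T as scaled by the authors, and both rest on few reads.

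**Figure D2:**
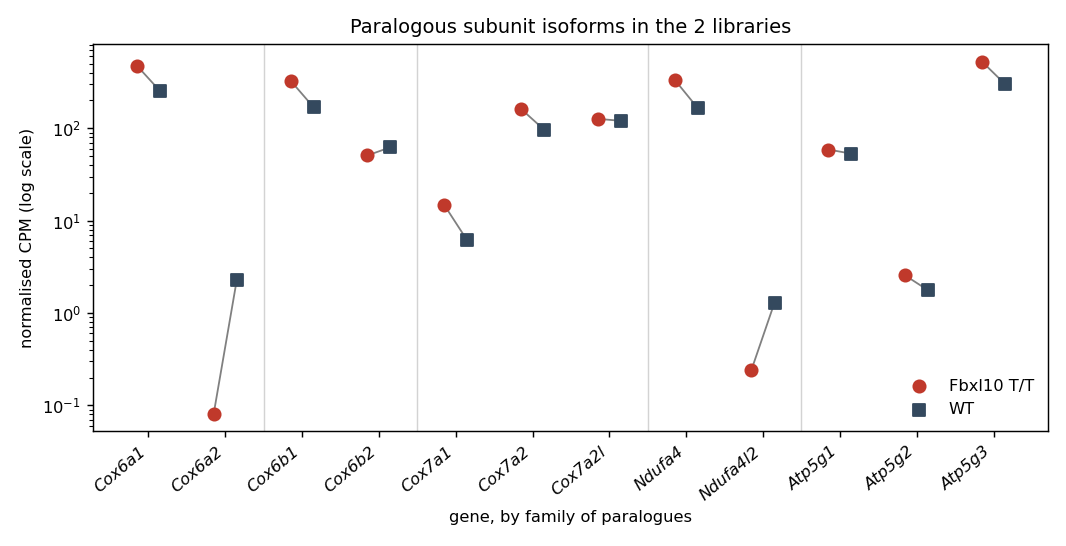
Normalised CPM (y axis, log scale) of subunits that have paralogues (x axis, by family) in the T/T library (red circles) and the WT library (dark squares), with a line joining the libraries. Cox6a2 and Ndufa4l2 are lower in T/T while Cox6a1 and Ndufa4 in the same families are higher, and Atp5g2 lies far below Atp5g1 and Atp5g3 in both libraries.

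Complex V, the ATP synthase, gave different answers by gene and by sum. Of its 15 genes 13 lay above 0, with a median log2 ratio of 0.43, yet the summed level as deposited was nearly the same in both libraries, 6930 CPM in T/T and 6971 CPM in WT cells (0.994-fold, 0.987 to 1.001). The sum was set by the catalytic subunits. Atp5b, the beta subunit and the most abundant subunit gene of all, had 3053 CPM in T/T and 3482 CPM in WT cells, 1.14-fold lower in T/T (1.13 to 1.15). Atp5a1, the alpha subunit, had 1461 CPM in T/T and 1821 CPM in WT cells, 1.25-fold lower in T/T (1.23 to 1.26). Without them the other 13 genes summed to 2416 CPM in T/T and 1668 CPM in WT cells (1.45-fold, 1.43 to 1.47), and all 13 lay above 0, with the exception of Atp5f1, Atp5o and Atp5g1 under plain read scaling and of Atp5g1 at a common upper quartile. The alpha and beta subunits enter each enzyme in equal numbers. Their log2 ratios were -0.32 and -0.19, and the counting intervals of their folds do not overlap. Their coding sequences, of 1659 and 1587 bases, are also the longest of the complex, followed by Atp5c1 with 894 bases. Catalytic role and coding length can therefore not be told apart in complex V.

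The remaining subunits of the F1 head, which form and cap the rotor stalk, were all higher in T/T. The delta subunit Atp5d had 333.6 CPM in T/T and 199.985 CPM in WT cells (1.67-fold), and the epsilon subunit Atp5e had 207.4 CPM in T/T and 124.6 CPM in WT cells (1.66-fold). The gamma subunit Atp5c1 had 350.7 CPM in T/T and 251.6 CPM in WT cells (1.39-fold). In the membrane part and the outer stalk all 10 genes were above 0 but for the 3 just named under plain read scaling, between 0.15 and 0.81, and their sum was 1524 CPM in T/T and 1092 CPM in WT cells (1.396-fold, 1.37 to 1.42). Stalk genes Atp5f1, Atp5h, Atp5j and Atp5o had 1.19- to 1.26-fold higher levels in T/T, and the small membrane subunits Atp5k, Atp5j2 and Atp5l had 1.3996- to 1.46-fold higher levels.

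The c subunit of the membrane rotor is made from 3 genes, Atp5g1, Atp5g2 and Atp5g3, whose mature proteins are the same. Atp5g3 had the highest level, with 527.3 CPM in T/T and 300.6 CPM in WT cells (1.75-fold, 1.70 to 1.81). Per length the levels of Atp5g3, Atp5g1 and Atp5g2 were 738.6, 98.8 and 5.79 CPM per kb in T/T and 421.1, 89.1 and 3.99 CPM per kb in WT cells. Atp5g1 had 58.9 CPM in T/T and 53.1 CPM in WT cells (1.11-fold, 1.03 to 1.20). Atp5g2 was listed at 2.55 CPM (63 reads) in T/T and 1.76 CPM (42 reads) in WT cells, and the interval of its ratio spans 1 (0.967 to 2.198). The last 120 coding bases of the 3 genes are shown, to set them beside each other and beside a pseudogene of Atp5g2, with capitals at bases that differ from Atp5g2 (GENCODE M21 transcripts, coding strand).
Atp5g2: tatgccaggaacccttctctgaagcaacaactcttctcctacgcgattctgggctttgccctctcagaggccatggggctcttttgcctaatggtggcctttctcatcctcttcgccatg
Atp5g1: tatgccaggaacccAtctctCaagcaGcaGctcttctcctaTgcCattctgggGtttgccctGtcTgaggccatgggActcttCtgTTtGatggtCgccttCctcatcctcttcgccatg
Atp5g3: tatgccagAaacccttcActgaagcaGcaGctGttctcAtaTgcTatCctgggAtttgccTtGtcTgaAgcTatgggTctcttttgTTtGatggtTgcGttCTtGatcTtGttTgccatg
Atp5g1 differs from Atp5g2 at 16 and Atp5g3 at 27 of these 120 bases. The annotated processed pseudogene Gm10231 on chromosome 17 has 0 differences over the same stretch, and both it and Gm10175 match the whole coding sequence of Atp5g2 at 100% identity. All 50-base windows of the Atp5g2 transcript used (100%) recur in a pseudogene transcript. That transcript has 441 bases, of which 438 are coding, so the share describes almost only the coding sequence.

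Such copies were common among the subunits. An annotated pseudogene with at least 90% identity over at least 50% of the coding sequence was found for 33 of the 78 subunits, 81 pseudogenes in all, and 34 subunits had at least one 50-base window in common with a pseudogene transcript. At 18 subunits 10% or more of the windows were shared. These 18 had a median of 86.7 CPM per kb in T/T and 78.6 CPM per kb in WT cells, and the other 60 had 144.6 CPM per kb in T/T and 119.1 CPM per kb in WT cells, with ranges that overlap almost fully. The 18 had a median log2 ratio of 0.28 and the other 60 one of 0.46. Across the 78 subunits, whose values come from the same 2 libraries, Spearman's rho between the shared percentage and the level per kb was -0.19 in T/T and -0.15 in WT cells. How the authors' counting treated reads that match several places is not given in the sources used here, so the part of shared sequence in any low level was not tested.

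The lowest levels are of interest here, because 5 subunits stood under 10 CPM in both libraries. Of these, Atp5g2 shared 100% of its windows, Atp5l 68.5% and Ndufb4 37.0%, whereas Cox6a2 and Ndufa4l2 shared none. Ndufb4, a membrane arm subunit of complex I, had 2.43 CPM in T/T and 1.72 CPM in WT cells (1.42-fold, 0.936 to 2.16), and its pseudogene Ndufb4c has an identical coding sequence. Atp5l, subunit g of the ATP synthase, had 4.94 CPM in T/T and 3.39 CPM in WT cells, and 13 pseudogenes passed the identity criterion. Per length, Atp5l had 9.08 CPM per kb in T/T and 6.23 CPM per kb in WT cells. Atp5j2 and Atp5k, which are also small membrane subunits of the ATP synthase, had 170.0 and 321.8 CPM per kb in T/T and 121.5 and 226.4 CPM per kb in WT cells. Atp5h, with 66.6% of its windows shared, had 163.5 CPM per kb in T/T and 130.2 CPM per kb in WT cells. That is per length of a transcript of 486 bases, of which 483 are coding. The pseudogene Gm10250 had 2.19 times (T/T) and 2.12 times (WT) the reads of Atp5h. The part of sharing in these levels was not tested.

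Of the 81 pseudogenes 22 were listed in the table with reads of their own, matching 20 subunits. All 22 pseudogene rows were above 0 on the log2 scale as deposited, with a median of 0.28, compared with 50.9% of all genes. Under plain read scaling 9 of the 22 were above 0, compared with 37.8% of all genes. As deposited, 20 of the 22 had the same sign as their gene, which says only that the gene rows of those pairs were above 0 too. In 7 pairs the pseudogene had more reads than its gene in both libraries. The widest gap was at Atp5l: Gm10221 on chromosome 5 had 84.4 CPM in T/T and 47.5 CPM in WT cells, 17.1 times (T/T) and 14.01 times (WT) the reads of Atp5l. Gene and pseudogene together were 1.75-fold higher in T/T, with 89.4 CPM in T/T and 50.9 CPM in WT cells. More reads in a pseudogene than in the gene were also listed for Cox7c, a small subunit of complex IV that was lower in T/T, at 14.6 CPM against 18.6 CPM in WT cells. Its pseudogene Gm12338 on chromosome 11 had 68.8 CPM in T/T and 64.7 CPM in WT cells, and the 2 rows together came to 83.4 CPM in T/T and 83.2 CPM in WT cells, so the sum was nearly equal under the deposited scaling, while the other scalings, which move a log2 ratio by -0.13 to -0.31, put it lower in T/T too. The last 100 coding bases of Cox7c and of 2 pseudogenes are given, with capitals at differences from Cox7c.
Cox7c: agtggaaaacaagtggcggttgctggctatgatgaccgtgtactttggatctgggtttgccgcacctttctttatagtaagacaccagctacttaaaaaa
Gm12338: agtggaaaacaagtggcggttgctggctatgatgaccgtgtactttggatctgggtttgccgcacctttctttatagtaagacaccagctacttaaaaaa
Gm20091: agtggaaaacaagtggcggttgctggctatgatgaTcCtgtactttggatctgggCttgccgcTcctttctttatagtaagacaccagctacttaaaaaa
Gm12338 has 0 differences and Gm20091 has 4, and Gm20091 was not among the listed genes. The other 5 pairs with more reads in the pseudogene were Gm10250 with Atp5h, BC002163 with Ndufs5, Gm15920 with Ndufa12, Gm4459 with Ndufab1 and Gm12251 with Ndufs3, at ratios of 1.05 to 2.19. For Atp5h, the d subunit of the stalk, Gm10250 had 174.1 CPM in T/T and 134.1 CPM in WT cells. Levels of these genes are therefore uncertain, and their ratios are those of the reads that were assigned to them.

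**Figure D3:**
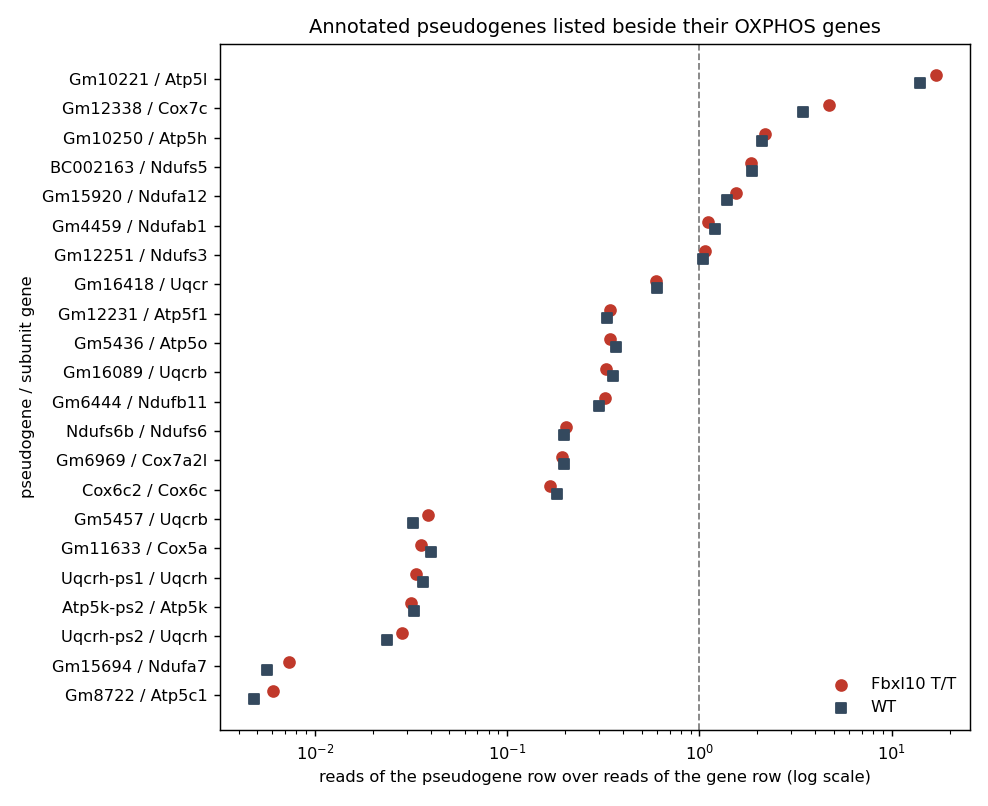
Reads of each listed pseudogene over reads of its subunit gene (x axis, log scale) for the 22 pairs (y axis), in the T/T library (red circles) and the WT library (dark squares); the dashed line marks equal reads. In 7 pairs both points lie above 1, with Gm10221 over Atp5l at 17.1 in T/T and 14.01 in WT, and the points of a pair lie close together in most pairs.

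Ratios went with the length of the coding sequence. The 20 subunits with up to 300 coding bases had a median log2 ratio of 0.70, and 12 of them (60.0%) were at least 1.5-fold higher in T/T, compared with 39.7% of other genes of that length and 48.3% of those with at least 20 CPM. The 38 with 301 to 600 bases had a median of 0.42, the 11 with 601 to 1200 bases 0.26, and the 9 with over 1200 bases -0.10. Only 3 of these 9 long genes lay above 0, namely Ndufv3, Uqcrc2 and Ndufs1, while Ndufv1, Atp5a1 and Sdha were among those below. Spearman's rho between coding length and log2 ratio was -0.38 across the 78 subunits and -0.45 across the 60 with few shared windows. Genes of 1 library pair share its depth and composition, so these are descriptions.

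The short genes outside the group leaned the same way. Other genes had medians of 0.39 (174 genes up to 300 bases), 0.10 (1290 genes of 301 to 600), -0.01 (3625 genes of 601 to 1200) and -0.02 (7411 genes over 1200). Among other genes with at least 20 CPM in 1 library or more, the medians were 0.58, 0.24, 0.20 and 0.15 in the same order. Over all 12578 genes with a coding length, rho was -0.04. Ribosomal protein genes, which are also short and abundant, showed the same order by length. Cytosolic ones had medians of 0.24, -0.07, -0.14 and -0.39 (4 rows). Mitochondrial ones had 0.75 (2 genes), 0.33, -0.03 and -0.31 (4 genes). The 4 cytosolic rows include Rpl3l, with 3 reads in T/T, and a row listed as Rpl24 whose current symbol is Zbtb11. That longest class is therefore not made of ribosomal protein genes only. Within complex I the order held too, with 0.75, 0.43, 0.14 and -0.07 from the shortest to the longest class. All 7 core subunits of complex I exceed 600 coding bases, as do 3 accessory ones, and these 3 had ratios of 0.61 (Ndufa9), 0.46 (Ndufv3) and -0.01 (Ndufa10). Whether length or class goes with the split of complex I cannot be told apart from so few genes.

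**Figure D4:**
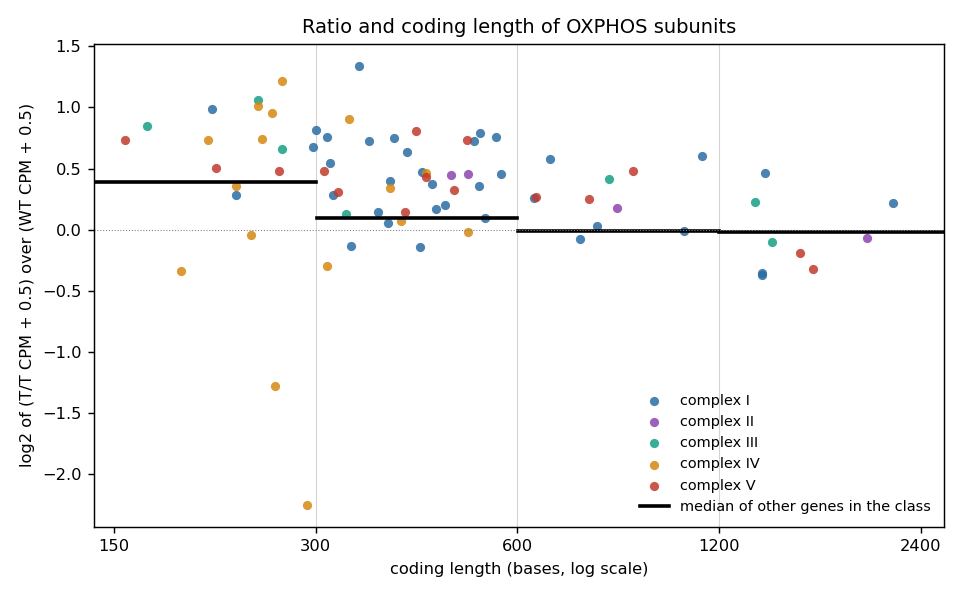
Log2 ratio (y axis, T/T over WT, CPM + 0.5) of each subunit against its coding length in bases (x axis, log scale), coloured by complex, with black bars at the median of other genes in each length class. Subunits up to 300 bases have a median of 0.70 beside 0.39 for other genes, and those over 1200 bases one of -0.10 beside -0.02.

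Promoters of respiratory chain genes are known for sites of the activators NRF1 and GABP, an ETS family factor, and for YY1. RefSeq promoter windows (GRCm38.p6, 300 bases that end 50 bases after each start) matched 65 of the 78 subunits and were searched on both strands. The NRF1 motif, a palindrome of GCGC on either side of an A and any 1 base, was found at 17 subunits (26.2%). Among 10000 listed genes with a window and at least 1 CPM in 1 library or more, the share was 11.4%. Among all 27025 genes with a window it was 5.19%. The ETS motif CCGGAAG was found at 16 subunits (24.6%), compared with 19.6% and 9.93%. The YY1 motif AAGATGGC was found at 10 subunits (15.4%), compared with 5.24% and 3.19%. Any of the 3 was found at 37 subunits (56.9%), compared with 31.8% of these listed genes and 16.4% of all genes with a window. The windows of 3 genes are shown over the 100 bases before the start, with motif matches in capitals: Ndufa5, with the highest ratio and an NRF1 match, Cox6b1, with an ETS match read from the other strand, and Sdhd, with both.
Ndufa5, chr6:24527691-24527790, minus strand: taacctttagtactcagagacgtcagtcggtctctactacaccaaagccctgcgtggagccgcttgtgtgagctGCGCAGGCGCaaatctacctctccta
Cox6b1, chr7:30626115-30626214, minus strand: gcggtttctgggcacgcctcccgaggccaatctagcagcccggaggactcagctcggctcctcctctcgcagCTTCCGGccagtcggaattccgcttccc
Sdhd, chr9:50603850-50603949, minus strand: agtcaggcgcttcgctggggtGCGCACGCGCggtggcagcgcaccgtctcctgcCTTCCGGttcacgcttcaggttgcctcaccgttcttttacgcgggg
Medians of subunits with and without a match were close. The median log2 ratio was 0.43 for subunits with the NRF1 motif and 0.46 for those without, 0.49 and 0.41 with and without the ETS motif, and 0.42 and 0.45 with and without the YY1 motif. A match describes letters and not a bound site. The genes of the factors had modest differences: Nrf1 had 123.3 CPM in T/T and 91.7 CPM in WT cells, Gabpa 29.2 CPM in T/T and 32.0 CPM in WT cells, and Yy1 165.0 CPM in T/T and 130.9 CPM in WT cells (named for the motifs, after their values were seen).

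The 5 genes that share a prefix but encode no subunit were all lower in T/T, with a median log2 ratio of -0.30. Cox4nb, which encodes a subunit of the endoplasmic reticulum membrane protein complex, had 98.7 CPM in T/T and 165.5 CPM in WT cells, 1.68-fold lower in T/T. It lies 202 bases from Cox4i1 on chromosome 8 in mm9, whereas Cox4i1 differed by less than counting error under the deposited scaling (a log2 ratio of -0.02, and of -0.15 to -0.32 under the others). Atp5sl, a factor of respiratory complex assembly, had 28.8 CPM in T/T and 46.6 CPM in WT cells, 1.62-fold lower in T/T. The complex I assembly factors Ndufaf1 and Ndufaf2 were at -0.20 and -0.30, and Atp5s at -0.29 on the log2 scale. A further 13 genes carry a matching symbol only in current annotation. Among them are the complex III subunit gene Uqcr10 (147.7 CPM in T/T and 112.3 CPM in WT cells) and Atp5mpl, which encodes a small ATP synthase subunit (113.2 CPM in T/T and 53.3 CPM in WT cells). Also among them are 6 more Ndufaf assembly factors, which lay on both sides of 0 as deposited. Ndufaf8, Ndufaf7, Ndufaf6 and Ndufaf4 were at 0.37, 0.26, 0.22 and 0.06, and Ndufaf3 and Ndufaf5 at -0.17 and -0.39.

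Lists of genes that work with the complexes are set beside the median of 0.02 over all genes, of which 14.8% were 2-fold higher and 20.6% 2-fold lower. Assembly factors and chaperones of complexes II to V had a median log2 ratio of 0.22 over 27 genes (-0.05 under plain read scaling), with 1 gene 2-fold higher and none 2-fold lower. Coa3, a complex IV assembly factor, stood at one end, with 73.2 CPM in T/T and 34.4 CPM in WT cells, and Lyrm7, a complex III assembly factor, at the other, with 1.18 CPM in T/T and 2.22 CPM in WT cells. Complex I assembly factors outside the symbol rule, a list without any Ndufaf gene, had a median of -0.05 over 7 genes (-0.35 under plain reads). Tmem126b was highest among them, with 8.30 CPM in T/T and 4.27 CPM in WT cells, and Nubpl lowest, with 11.8 CPM in T/T and 16.4 CPM in WT cells.

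Electron carriers and partner proteins had a median of 0.14 over 21 genes (-0.16 under plain read scaling), with 2 genes (9.52%) 2-fold higher and 1 (4.76%) lower. Summed, they had 3023 CPM in T/T and 2196 CPM in WT cells (1.38-fold). The adenine nucleotide carriers, which exchange ATP for ADP across the inner membrane, ranged widely. Slc25a4, the heart and muscle form, had 562.8 CPM in T/T and 149.0 CPM in WT cells, and Slc25a31, the germ cell form, had 3 reads (0.122 CPM) in T/T and 3.98 CPM in WT cells. The form of proliferating cells, Slc25a5, had 392.2 CPM in T/T and 486.6 CPM in WT cells. Genes of the citric acid cycle and pyruvate dehydrogenase had a median of 0.11 over 18 genes, which was below 0 under each of the other scalings. The pyruvate carboxylase gene Pcx was lowest, with 11.4 CPM in T/T and 37.2 CPM in WT cells, and Sucla2, a subunit of succinyl-CoA synthetase, highest, with 34.3 CPM in T/T and 17.96 CPM in WT cells. Import and inner membrane genes had a median of 0.31 over 23 genes (0.07 at a common upper quartile and 0.0039 under plain reads), between Oma1, an inner membrane protease (6.00 CPM in T/T and 10.2 CPM in WT cells), and Timm9, a small carrier chaperone (31.7 CPM in T/T and 13.9 CPM in WT cells).

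Genes that maintain and transcribe mitochondrial DNA had a median of -0.11 over 12 genes (-0.41 under plain reads), and 2 (16.7%) were 2-fold higher, near the share of all genes. These were Top1mt, the mitochondrial topoisomerase gene, with 28.0 CPM in T/T and 9.38 CPM in WT cells, and Polg, the catalytic polymerase subunit gene, with 184.4 CPM in T/T and 90.8 CPM in WT cells. Regulators of mitochondrial gene programmes had a median of -0.13 over 13 genes (-0.43 under plain reads) with ends far apart, 2 (15.4%) being 2-fold higher and 3 (23.1%) 2-fold lower. Ppargc1b, a coactivator of mitochondrial genes, had 6.52 CPM in T/T and 2.26 CPM in WT cells, and its partner receptor gene Esrra had 56.7 CPM in T/T and 22.6 CPM in WT cells. At the other end Esrrb, which is also among the pluripotency markers, had 49.3 CPM in T/T and 818.2 CPM in WT cells, and Myc had 11.5 CPM in T/T and 73.6 CPM in WT cells. Mitochondrial ribosomal protein genes had a median of 0.11 over 75 genes, which turned negative under each of the other scalings, and cytosolic ones -0.06 over 80 genes.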

How the data were processed

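The deposited table gives, per the labels, 1 library of Fbxl10 T/T and 1 of WT ES cells, sequenced as polyadenylated RNA. TopHat 1.4.1, HTSeq 0.5.3p9, edgeR and build mm9 are named in the submitters' processing notes. What each did, the annotation, the strand setting and the treatment of reads that match several places are not stated there. The authors deposited a normalised signal per library (called normalised CPM) and their own log2 ratio of WT over T/T. Within a tolerance of 0.01 reads, 100% of the signal values were whole multiples of 1 step in each library. This step is what 1 read was worth, 0.0405 CPM in T/T and 0.0419 CPM in WT. The columns sum to 1098140 and 887645 CPM in T/T and WT, which plain CPM does not allow. The authors' log2 ratios and those recomputed here were at most 0.0028 apart (9311 genes with at least 5 CPM in each library).

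Each of the 13620 genes was used once out of 24706 rows. Ratios used a pseudocount of 0.5 CPM and counts of genes a minimum of 1 CPM in at least 1 library, with folds of 1.5 and 2. All 83 members passed this minimum. Because there was 1 library per genotype, ratios, medians, sums and counts are descriptions. Reads may be PCR copies of 1 molecule, and intervals and the limit of 3 reads therefore cover counting error only. The steps were tested on simulated reads. Members were named by complex: the highest and lowest ratios, the highest levels, isoform families, those past 2-fold and those under 10 CPM in both libraries; other lists by up to 2 genes at either end. The members and lists were chosen with earlier results of these data known.

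Coding and transcript lengths, 50-base windows and pseudogenes came from GENCODE M21, matched by gene ID. Per gene, the transcript with the longest coding sequence was used, and the shortest of these where several had it. Some of these transcripts hold almost only coding bases, as for Atp5g2 and Atp5h. Levels per kb and shared percentages are therefore not strictly comparable between genes. Pseudogenes were found among 13583 annotated ones with BLAST+ 2.17.0. Promoter sequences are RefSeq's. Alternatives were pseudocounts of 0.1 and 1 CPM, 3 other scalings, no minimum or a minimum of 5 CPM, all rule matches by prefix, sums without the most abundant subunit, and an exact binomial test. Splits by pseudogene windows and coding length were added after the data were seen. Software was scipy 1.17.1, pandas 2.3.3, numpy 2.4.6 and matplotlib 3.10.9 in Python 3.11.15. Values of 1 subunit that enters the counts are not reported here.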

Additional observations from a re-analysis of the deposited data

How the results depend on the processing

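No paired analysis was possible because each genotype had a single library, and leaving a library out was not possible either. The median log2 ratio of each complex stayed above 0 under every alternative run. It moved to 0.16 for all subunits, 0.18 for complex I and 0.24 for complex V at a common upper quartile, and to 0.0912, 0.114 and 0.172 under plain read scaling. Under these 2 scalings complex II came to 0.08 and 0.0071, complex III to 0.18 and 0.11, and complex IV to 0.11 and 0.05, so that complexes II and IV lay near 0 under plain reads. Medians of other lists changed sign for mitochondrial ribosomal proteins (-0.0164, -0.121 and -0.189 at a common median, a common upper quartile and plain read scaling) and for assembly factors of complexes II to V (-0.0526 under plain reads). The citric acid cycle list stood at -0.02, -0.12 and -0.19, and the electron carrier list at -0.09 and -0.16 under the last 2 scalings. Subunits 1.5-fold higher numbered 8 at the upper quartile and 7 under plain reads, and those 1.5-fold lower 4 and 7, 0 at a minimum of 5 CPM and 4 with all rule matches. Among all genes 2599 and 2395 were 1.5-fold higher, and 4695 and 5091 lower, under those 2 scalings. Subunits 2-fold higher numbered 2 at a common median and 1 under the other scalings; those 2-fold lower 1 with a pseudocount of 1 CPM and 0 at a minimum of 5 CPM. That minimum left 2508 of all genes 1.5-fold and 1737 2-fold lower. Summed levels (log2 of T/T over WT) at a common median, a common upper quartile, plain reads, and without the most abundant subunit were 0.148, 0.0409, -0.0279 and 0.329 for complex I, 0.106, -0.0007, -0.0695 and 0.382 for complex II, 0.257, 0.15, 0.0813 and 0.612 for complex III, 0.36, 0.25, 0.18 and 0.64 for complex IV, and -0.14, -0.25, -0.32 and 0.15 for complex V. The sum of complex V was above 0 only without Atp5b. Scaling moves each gene by nearly the same amount by construction, and which scaling is right was not tested. Cox6a2 and Ndufa4l2 rest on 2 and 6 reads in T/T, where depth limits the ratio.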
